A study of Homo sapiens with 12 samples.

Results

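Kelly neuroblastoma cells treated with 400 nM THZ531 were set against Kelly cells treated with 100 nM, and a gene was taken as a member when both arrays of one dose lay beyond both arrays of the other. By this rule 5402 of 18244 measured genes (29.6%) were members. With 2 arrays per dose in random order, a gene would be a member with a probability of 0.33. The share of members did not exceed that, so membership alone is no measure of a dose response. Of all genes, 1892 had both 400 nM arrays below both 100 nM arrays (10.4%) and 3510 had both above (19.2%), while the arrays of 12842 genes (70.4%) overlapped. The series holds 12 GeneChip PrimeView arrays of total RNA, 2 for each of 6 groups: Kelly and IMR-32 cells, each given DMSO, 100 nM THZ531 or 400 nM THZ531 for 6 h. Both are established human neuroblastoma lines in culture with amplified MYCN, and each group is 1 line, so that nothing here speaks to other tumours. The 2 arrays of a group were called biological duplicates in the labels, and 4 arrays carry the comparison described here. Log2 intensities are given, scaled by the authors to spike-in RNAs, with changes as 400 minus 100 nM ± SE (limma, n = 2 arrays per dose). The SE rests on 1 spread per gene, pooled over the duplicates of all 6 groups of both lines.

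THZ531 binds CDK12 and CDK13 covalently. These kinases, with cyclin K, phosphorylate the tail of RNA polymerase II while it moves through a gene, and transcripts of long genes, many of DNA repair genes among them, are known to depend most on CDK12. The step between the doses asks which transcripts differ between a lower and a higher exposure to the inhibitor.

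The 4 arrays did not pair by dose. Over all genes, 400 nM replicate 1 was most like 100 nM replicate 2 (Pearson's r = 0.988) and 400 nM replicate 2 most like 100 nM replicate 1 (r = 0.986), whereas the 2 arrays at 400 nM had r = 0.960 and those at 100 nM r = 0.969. Medians against the mean of the DMSO arrays were −0.34 and −0.16 at 400 nM, and −0.17 and −0.48 at 100 nM. Thus each dose had 1 array further below DMSO and 1 nearer to it. The replicate difference of a gene (replicate 1 minus replicate 2) had a median size of 0.26 at 400 nM and 0.38 at 100 nM. A single 400 nM array differed from a single 100 nM array by median sizes from 0.22 to 0.37, near those values. The dose step, a difference between means of 2 arrays and so not of the same kind, had a median size of 0.19. Across genes, which are not independent replicates, the replicate differences at the 2 doses had r = −0.78. Whether numbers or labels were exchanged was not tested, and the labels are used as they stand. The plot of array levels and correlations shows these likenesses. For results that turn on them each 400 nM array is also set against each 100 nM array.

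**Figure D1:**
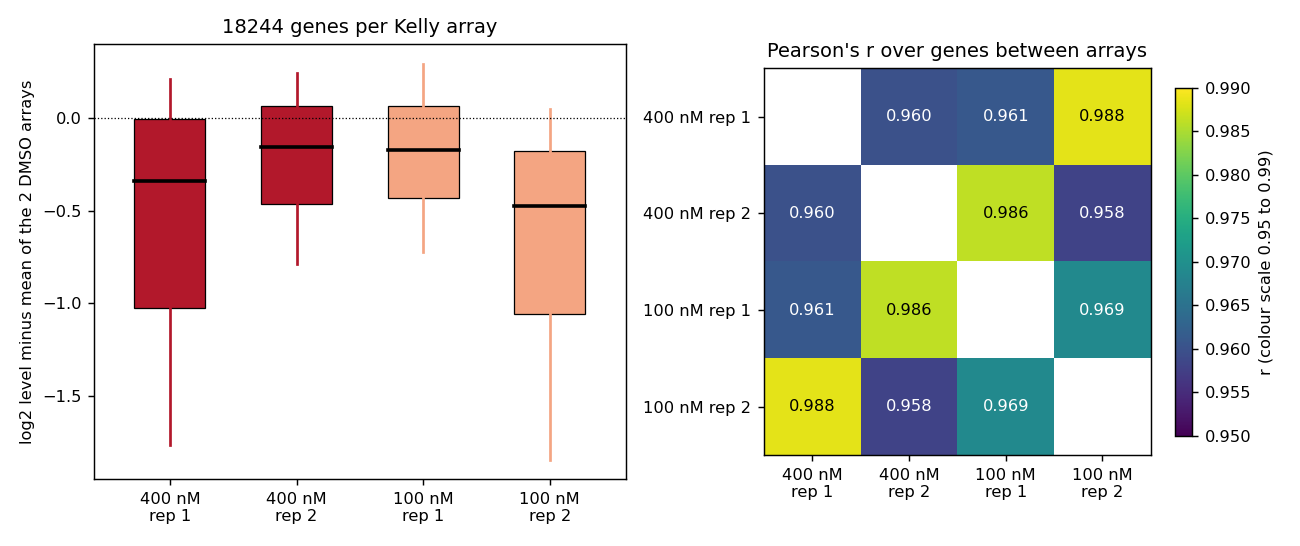
Left, log2 level of 18244 genes in each treated Kelly array minus the mean of the 2 DMSO arrays, with the median as a bar, the box from the lower to the upper quartile and lines to the 10% and 90% points. Right, Pearson's r over genes between the arrays. The medians of 400 nM replicate 1 (−0.34) and 100 nM replicate 2 (−0.48) are the low ones, and these arrays are the most alike (r = 0.988).

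Median intensity per array was 66.1 and 87.1 at 400 nM and 87.0 and 59.5 at 100 nM over 49495 rows. Mean log2 levels of hybridisation controls, which were not used for the scaling, were 10.75 and 10.90 at 400 nM and 11.16 and 10.63 at 100 nM. All 7 measured markers of adrenergic neuroblastoma (PHOX2A, HAND2, GATA3, ISL1, TH, DBH and CHGA) had mean levels above the median of all rows, 6.40, and their summed level ran from 15.04 to 15.08 at 400 nM and from 15.06 to 15.39 at 100 nM. Of the markers of other states or cells, 3 of 8 mesenchymal, 1 of 3 Schwann cell, 2 of 5 fibroblast and 0 of 3 blood cell genes lay above that median. Their sums were lower, from 6.30 (blood cells) to 11.40 (mesenchymal) at 400 nM and from 6.07 to 11.68 at 100 nM. In bulk RNA, fewer cells that express a gene and less of its RNA per cell cannot be told apart.

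No gene passed limma with Benjamini-Hochberg adjustment over all genes (0 of 18244, 0.0%; smallest adjusted p = 1.00), and at an unadjusted p under 0.05 limma gave 165 lower and 385 higher genes, 3.01% of all. With 2 arrays per dose the smallest two-sided p of an exact permutation test is 0.33, above any usual threshold, and the separation of arrays is therefore given as a description. The distance between the nearest arrays of the doses, called the gap, had a median of 0.14 among the lower and 0.14 among the higher members. A gap of at least 0.25 was reached by 491 lower and 892 higher genes, one of at least 0.5 by 101 and 111, and one of at least 1 by 2 and 1. The genes just inside the rule were ATG4D (gap −0.0001) and AIRE (0.0002), and KIR2DS4 and TRMT112 lay just outside. The balance of directions depended on the scaling: 35% of the members were lower as deposited, 65.2% with each array centred on its median (2419 lower, 1291 higher) and 52.4% after quantile normalization (1863 lower, 1692 higher). Of all genes these were 13.3% lower and 7.08% higher with median centring, and 10.2% and 9.27% after quantile normalization. Counts of list members in those scalings are read against these shares. With all 3 scalings 698 genes were lower and 759 higher, and the genes with the widest gaps below were taken from these.

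MED26 had the widest gap of the lower genes chosen in this way. The treated arrays of both doses are set beside the same DMSO arrays. This gene encodes the Mediator subunit on which elongation factors dock. Its log2 level was 9.45 and 9.37 (DMSO), 10.71 and 10.44 (100 nM) and 9.05 and 9.08 (400 nM). Both 400 nM arrays were thus below DMSO and both 100 nM arrays above it, and the change was −1.50 ± 0.23 (limma unadjusted p = 0.000116, adjusted p = 1.00), with its other probe set also apart in the same direction. DDIT4, which encodes a stress-induced inhibitor of the growth kinase complex mTORC1, was at 9.19 and 9.50 (DMSO), 10.60 and 10.44 (100 nM) and 9.49 and 9.31 (400 nM), a change of −1.13 ± 0.40, with the 400 nM arrays back in the DMSO range. SESN2, whose sestrin product also restrains mTORC1, was at 8.43 and 8.73 (DMSO), 9.25 and 8.98 (100 nM) and 8.15 and 7.90 (400 nM), a change of −1.09 ± 0.30. SERTAD1, a cofactor of E2F transcription factors that also binds CDK4, was at 6.94 and 7.41 (DMSO), 9.08 and 8.82 (100 nM) and 7.91 and 7.72 (400 nM), so that its 400 nM arrays stayed above DMSO. These 4 genes were therefore highest at the lower dose, with no overlap between the doses.

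The other genes of this group have varied roles. RASL11B, a small RAS-like GTPase gene, was at 7.44 and 7.41 at 400 nM against 8.87 and 8.41 at 100 nM (−1.22 ± 0.26), and ATG101, a subunit of the complex that starts autophagy, at 8.30 and 8.20 at 400 nM against 9.62 and 9.18 at 100 nM (−1.15 ± 0.27). The molybdate transporter gene SLC61A1 was at 8.93 and 8.78 at 400 nM against 9.95 and 9.74 at 100 nM, and VPS37B, a subunit of the membrane-sorting complex ESCRT-I, at 8.08 and 7.87 at 400 nM against 9.19 and 8.88 at 100 nM. HIC2, a zinc finger repressor gene, was at 9.85 and 9.98 at 400 nM against 11.11 and 10.75 at 100 nM, with all 3 of its other probe sets in the same direction. PHF13, which encodes a chromatin reader with a PHD finger, was at 8.92 and 8.90 at 400 nM against 10.04 and 9.67 at 100 nM. In each of these 6 genes the 400 nM arrays lay below both DMSO arrays and the 100 nM arrays above both. The changes of SLC61A1, VPS37B, HIC2 and PHF13 lay between −1.06 ± 0.33 and −0.95 ± 0.25, and none of the 10 genes passed limma after adjustment. All 10 remained apart with median centring and quantile normalization, as the choice of genes required.

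The upstream bases of MED26 and SERTAD1, from the RefSeq promoter table for GRCh38.p14, are shown to display the sequence context of 2 of these genes. Each run holds the 250 bases before the gene's start, 5′ to 3′ on the gene's strand, with GGGCGG (the GC box of SP1-type factors) and CCAAT in capitals on either strand. MED26 lies at chr19:16628205-16628454 on the minus strand and holds 7 matches to GGGCGG and 0 to CCAAT. SERTAD1 lies at chr19:40425993-40426242 on the minus strand and holds 5 and 1.
MED26: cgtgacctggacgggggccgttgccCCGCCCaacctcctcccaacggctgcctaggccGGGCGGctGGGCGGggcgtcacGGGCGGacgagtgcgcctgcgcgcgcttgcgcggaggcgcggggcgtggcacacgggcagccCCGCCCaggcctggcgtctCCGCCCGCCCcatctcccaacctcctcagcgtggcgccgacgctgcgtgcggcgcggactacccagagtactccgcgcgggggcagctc
SERTAD1: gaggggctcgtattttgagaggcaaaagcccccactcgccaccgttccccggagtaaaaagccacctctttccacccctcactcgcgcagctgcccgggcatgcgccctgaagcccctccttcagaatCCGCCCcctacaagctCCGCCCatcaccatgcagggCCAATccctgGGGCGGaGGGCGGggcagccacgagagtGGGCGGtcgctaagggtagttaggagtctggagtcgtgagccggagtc

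Of 14488 genes matched to a promoter by gene identifier, 57.3% held GGGCGG in these 250 bases on either strand. The share was 67.1% among lower members and 43.8% among higher members. TATAAA was held by 7.09% of the lower, 13.2% of the higher and 8.8% of all genes, CCAAT by 36.6%, 31.4% and 34.6%, and the ETS core CCGGAAG by 14.8%, 4.84% and 12.1%. The cAMP response element TGACGTCA was held by 2.99%, 1.31% and 2.35%, and the E box CACGTG by 9.3%, 5.91% and 7.82%. Higher members were dimmer than lower members, and promoter content moved with level: GGGCGG was held by 36.1% of all genes in the lowest level quartile and 69.9% in the highest. Within the highest quartile it was held by 72.7% of the lower and 70.3% of the higher members, and within the second quartile by 68.9% and 47.7%. Its part in the dose step was not tested.

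**Figure D2:**
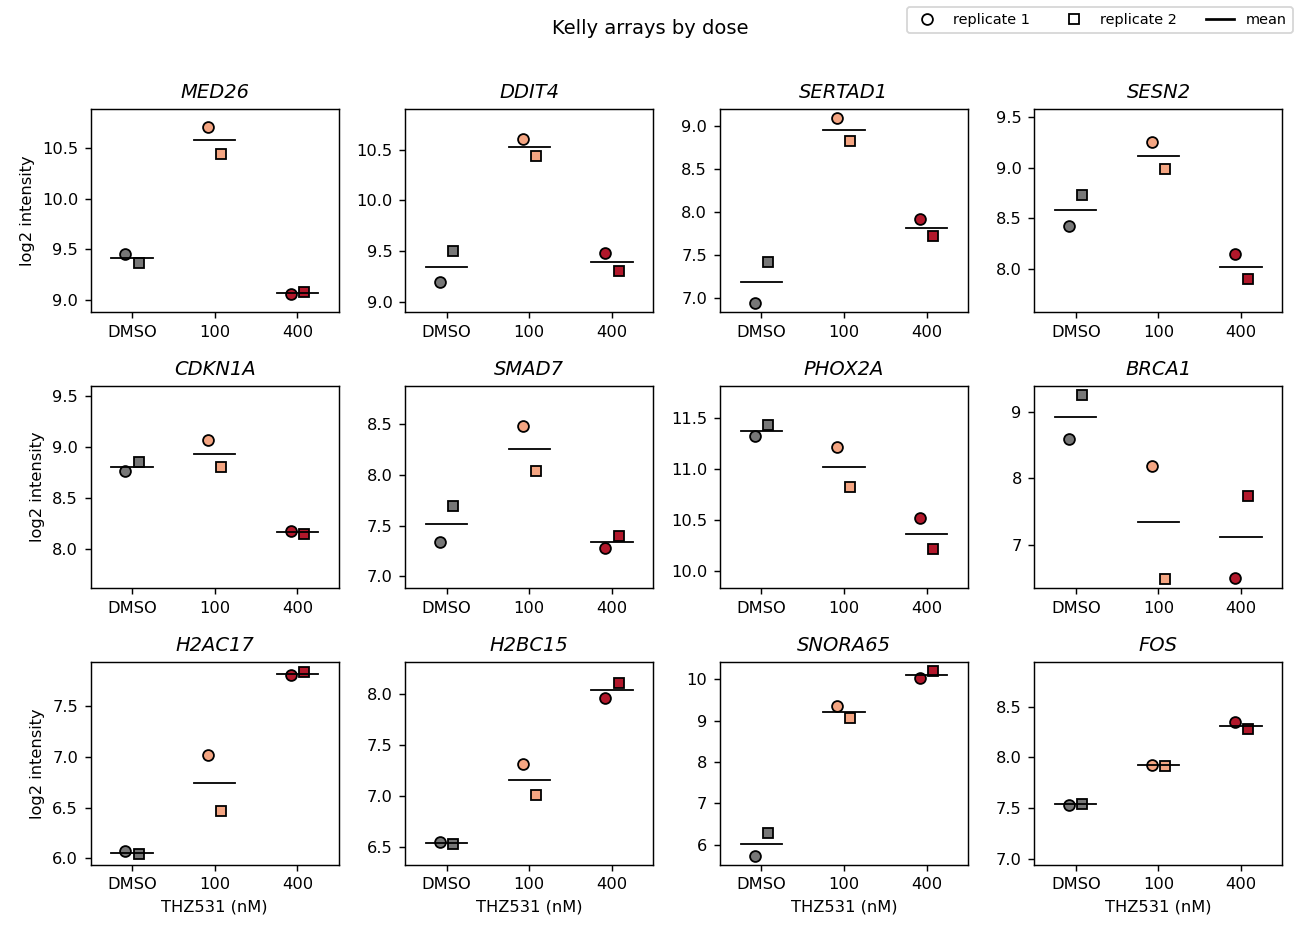
Log2 intensity of 12 genes in each Kelly array by THZ531 dose (DMSO, 100 and 400 nM), with replicate 1 as a circle, replicate 2 as a square and the mean as a line; each panel has its own range. MED26, DDIT4, SERTAD1 and SESN2 are highest at 100 nM, H2AC17, H2BC15, SNORA65 and FOS are highest at 400 nM, and the BRCA1 arrays of the 2 doses interleave.

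Mediator, the complex that carries signals from transcription factors to RNA polymerase II, held no higher members. Of its 27 measured genes 10 were lower at 400 nM and 0 higher, beside 10.4% and 19.2% of all genes, with a median change of −0.18 against 0.06 for all genes. The list was bright, with a median level of 8.54, and in the brightest quartile 15.2% of genes were lower and 2.43% higher as deposited. The part of level in the count was not tested. Counts were 12 and 0 with median centring, beside 13.3% lower and 7.08% higher of all genes. After quantile normalization they were 8 and 0, beside 10.2% and 9.27%. The list median was negative in 3 of the 4 pairings of a 400 nM with a 100 nM array and 0.17 for the replicates numbered 2. Besides MED26, the core subunit gene MED18 was at 7.33 and 7.29 at 400 nM against 8.15 and 7.97 at 100 nM. MED19, another subunit gene, was lower by a change of −0.53 ± 0.44. MED27 was at 9.64 and 9.48 at 400 nM against 10.17 and 9.86 at 100 nM (−0.46 ± 0.51), but its arrays overlapped after quantile normalization. MED18 lay below DMSO in both 400 nM arrays and above it in both 100 nM arrays, as MED26 did. Of the wider transcription machinery, 4 of 33 RNA polymerase II and elongation genes were lower (12.1%, near the 10.4% of all genes) and 1 higher. POLR2A, the largest polymerase subunit, was at 9.96 and 10.10 (DMSO), 10.88 and 10.61 (100 nM) and 10.34 and 10.30 (400 nM) and so above DMSO at both doses. BRD2, which encodes a reader of acetylated histones, was at 10.57 and 10.70 (DMSO), 11.54 and 11.19 (100 nM) and 10.63 and 10.71 (400 nM) (−0.69 ± 0.25), and CLK3, a kinase of splicing factors, was at 8.46 and 8.29 at 400 nM against 9.29 and 8.92 at 100 nM (−0.73 ± 0.28), with 1 of its 2 other probe sets of the same sign.

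Factors that hold adrenergic neuroblastoma identity had the largest share of lower members among lists of at least 10 genes as deposited. With median centring TGF beta and BMP feedback genes (8 of 13) and after quantile normalization hypoxia genes (8 of 17) had a larger share. Of 20 measured members 10 were lower and 1 higher, with a median change of −0.38. With median centring 12 were lower and 0 higher, beside 13.3% and 7.08% of all genes. After quantile normalization 9 were lower and 1 higher, beside 10.2% and 9.27%. The list was bright, with a median level of 9.82, and in the brightest quartile 15.2% of genes were lower and 2.43% higher as deposited. The part of level in the count was not tested. The median change was negative in 3 array pairings and 0.01 for the replicates numbered 2. PHOX2A, a homeodomain factor of noradrenergic neurons, was at 11.32 and 11.44 (DMSO), 11.22 and 10.83 (100 nM) and 10.51 and 10.21 (400 nM), so that the groups lay in dose order, DMSO above 100 nM above 400 nM, with no overlap. INSM2, a zinc finger factor gene, was at 12.18 and 12.15 at 400 nM against 13.10 and 12.67 at 100 nM, and TWIST1, of the bHLH family, at 10.30 and 10.31 at 400 nM against 11.45 and 10.65 at 100 nM (−0.74 ± 0.48). INSM1, a neuroendocrine factor gene, was above DMSO at both doses, at 7.37 and 7.32 (DMSO), 8.64 and 8.57 (100 nM) and 8.06 and 7.95 (400 nM), although the doses overlapped after quantile normalization. Of the core circuit, HAND2 was at 12.28 and 12.33 at 400 nM against 12.80 and 12.51 at 100 nM and GATA3 at 11.37 and 11.51 at 400 nM against 12.22 and 11.68 at 100 nM, with changes of −0.35 ± 0.42 and −0.51 ± 0.31. MYCN, the amplified oncogene of the line, was the brightest of these genes at 13.77 and 13.79 at 400 nM against 14.33 and 13.99 at 100 nM, a change of −0.38 ± 0.21, with all 3 other probe sets in the same direction. ALK, a receptor kinase gene often mutated in this tumour, overlapped between the doses at 8.29 and 8.62 at 400 nM against 8.83 and 8.19 at 100 nM, and so did the dim MYC at 4.32 and 4.65 at 400 nM against 4.57 and 4.23 at 100 nM.

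Several lists of stress and feedback genes held more lower than higher members, where all genes had 10.4% lower and 19.2% higher. Their medians were negative in 3 array pairings and positive for the replicates numbered 2, at 0.05 for the integrated stress response, 0.40 for p53 targets and 0.04 for TGF beta and BMP feedback genes. In the integrated stress response, which slows translation when cells are short of amino acids or under protein stress, 8 of 25 genes were lower and 1 higher (median −0.17; 9 and 2 with median centring, 7 and 2 after quantile normalization). Beside DDIT4 and SESN2 these included ATF3, a stress-induced transcription factor gene, at 6.72 and 6.86 at 400 nM against 7.86 and 7.37 at 100 nM (−0.82 ± 0.37), and CEBPB, a bZIP factor gene, at 9.43 and 8.97 at 400 nM against 10.12 and 9.83 at 100 nM (−0.77 ± 0.28). For ATF3, 4 of 6 other probe sets had the same sign. CDKN1A, the p53 target that encodes the cell cycle inhibitor p21, was at 8.76 and 8.85 (DMSO), 9.07 and 8.80 (100 nM) and 8.17 and 8.15 (400 nM). Its 400 nM arrays were thus below both other groups, with a change of −0.77 ± 0.23 (limma unadjusted p = 0.00797, adjusted p = 1.00). Among p53 and its targets 5 of 27 were lower and 2 higher. MDM2, the p53 ubiquitin ligase gene, overlapped at 5.85 and 7.39 at 400 nM against 7.24 and 6.05 at 100 nM. SMAD7, TGIF1 and SKI, which damp TGF beta signalling through SMAD proteins, were lower: SMAD7 was at 7.28 and 7.40 at 400 nM against 8.48 and 8.04 at 100 nM, TGIF1 at 7.80 and 7.79 at 400 nM against 8.90 and 8.28 at 100 nM and SKI at 9.73 and 9.72 at 400 nM against 10.58 and 10.03 at 100 nM. In that list of TGF beta and BMP feedback genes 6 of 13 were lower (median −0.37) and 1 was higher, the BMP antagonist gene NOG, at 5.07 and 5.17 at 400 nM against 4.71 and 4.48 at 100 nM.

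Immediate early genes, whose transcripts appear within minutes of a stimulus, held members in both directions. Of 40 genes 10 were lower (25%) and 6 higher (15%), beside 10.4% and 19.2% of all genes. The higher share thus lay below that of all genes. The list had a median level of 7.39, in the third level quartile, where 13.5% of genes were lower and 12.1% higher. Counts were 14 and 3 with median centring, where all genes had 13.3% lower and 7.08% higher. They were 13 and 2 after quantile normalization, where all genes had 10.2% and 9.27%. Lower were genes that end ERK signalling, the phosphatase genes DUSP5 at 6.14 and 6.79 at 400 nM against 8.02 and 7.40 at 100 nM (−1.24 ± 0.32) and DUSP4 at 7.12 and 7.19 at 400 nM against 8.12 and 7.66 at 100 nM (−0.73 ± 0.29). The serum response factor gene SRF was also lower, at 8.09 and 8.04 at 400 nM against 8.94 and 8.58 at 100 nM, but its other probe set had the opposite sign. Higher were FOS, an AP-1 subunit gene, at 7.53 and 7.54 (DMSO), 7.93 and 7.92 (100 nM) and 8.35 and 8.28 (400 nM), and IER3, a short survival gene, at 5.66 and 5.80 (DMSO), 7.06 and 6.81 (100 nM) and 7.50 and 7.49 (400 nM). Both were in dose order across DMSO, 100 and 400 nM with no overlap, but the FOS arrays overlapped after median centring and quantile normalization. EGR1, a zinc finger factor gene, overlapped at 5.97 and 5.99 at 400 nM against 6.23 and 5.92 at 100 nM, and 0 of its 5 other probe sets had its sign. PLK2, a polo-like kinase gene, also overlapped, at 7.53 and 9.23 at 400 nM against 9.29 and 7.43 at 100 nM.

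Lists of growth genes are read against the same 10.4% lower and 19.2% higher of all genes. With median centring all genes had 13.3% and 7.08%, and after quantile normalization 10.2% and 9.27%. The G1 and ribosome biogenesis lists had median levels of 8.545 and 9.74, and ribosomal protein and oxidative phosphorylation genes 13.99 and 11.81. In the brightest quartile 15.2% of genes were lower and 2.43% higher as deposited. The part of level in these counts was not tested. Of 26 G1 cyclin, E2F and CDK inhibitor genes 5 were lower and 2 higher, with the E2F family gene E2F4 at 8.44 and 8.46 at 400 nM against 9.40 and 8.80 at 100 nM. CDC25A, the phosphatase that starts S phase, was at 9.62 and 9.74 at 400 nM against 10.47 and 10.00 at 100 nM. Of 26 ribosome biogenesis genes 7 were lower and 0 higher, with BYSL and NOB1, both needed to build the small subunit, at 9.59 and 9.39 at 400 nM against 10.26 and 9.99 at 100 nM and at 10.11 and 9.82 at 400 nM against 10.69 and 10.44 at 100 nM. Among 52 cytosolic ribosomal protein genes 0 were lower and 2 higher (2 and 6 with median centring, 2 and 3 after quantile normalization), and among 32 oxidative phosphorylation genes 0 and 0 (2 and 0, 1 and 2). The G1 list held 6 and 1 with median centring and 5 and 1 after quantile normalization, and the ribosome biogenesis list 7 and 1 and 6 and 1. The control genes GAPDH and ACTB differed by 0.00 ± 0.20 and −0.06 ± 0.20, and their arrays overlapped between the doses.

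Replication-dependent histone genes had the largest share of higher members among lists of at least 10 genes. Their transcripts end in a stem loop instead of a poly(A) tail, whereas the labelling kit used here primes on poly(A). Of 53 measured genes 30 were higher at 400 nM (56.6%) and 0 lower, beside 19.2% and 10.4% of all genes, with a median change of 0.32 against 0.06. With median centring 20 were higher and 1 lower, beside 7.08% and 13.3% of all genes. After quantile normalization 22 were higher and 1 lower, beside 9.27% and 10.2%. At an unadjusted p under 0.05 limma gave 10 higher and 0 lower, beside 385 and 165 of all 18244 genes, and 0 passed after adjustment. These p-values use the arrays that also set the members, so they are no separate evidence. Against the DMSO mean the list median was 0.39 and 0.43 in the 400 nM arrays and 0.19 and −0.01 in the 100 nM arrays, so that both 400 nM arrays exceeded both 100 nM arrays. All 4 array pairings had a positive median, from 0.12 to 0.48, and of 44 lists this was the single list whose median kept its sign in every setting run. All 5 families held higher members: 4 of 5 H1, 7 of 13 H2A, 6 of 15 H2B, 7 of 10 H3 and 6 of 10 H4 genes were higher. The list was dim, with a median level of 6.08 against 6.84 for all genes, and dim genes were more often higher; the part of this in the count was not tested.

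H2AC17 was at 6.07 and 6.04 (DMSO), 7.02 and 6.47 (100 nM) and 7.81 and 7.83 (400 nM), a change of 1.08 ± 0.34 (limma unadjusted p = 0.011, adjusted p = 1.00), with its other probe set in the same direction. H2BC15 was at 6.54 and 6.53 (DMSO), 7.31 and 7.01 (100 nM) and 7.97 and 8.11 (400 nM) and H4C4 at 5.35 and 5.57 (DMSO), 5.79 and 5.65 (100 nM) and 6.49 and 6.44 (400 nM). The 3 genes were in dose order with no overlap between neighbouring groups. H3C8 was at 6.70 and 6.70 (DMSO), 6.82 and 6.80 (100 nM) and 7.72 and 7.52 (400 nM) with its 100 nM arrays within a small distance of DMSO, although only 2 of 3 further probe sets shared its sign. H2AC8 was at 7.51 and 7.77 (DMSO), 8.76 and 8.59 (100 nM) and 9.22 and 9.47 (400 nM) (0.67 ± 0.42). Copies within a histone family are nearly identical in sequence, so probe sets may read more than 1 of them. In contrast, H2AX, a variant whose product marks DNA breaks, was lower at 10.59 and 10.35 at 400 nM against 11.15 and 11.19 at 100 nM (−0.69 ± 0.29).

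Upstream bases of H2AC17 and H2BC15 are printed because that list had the largest share of higher members. They are from the same RefSeq table, 250 bases before the start, with CCAAT and TATAAA in capitals on either strand. H2AC17 lies at chr6:27893186-27893435 on the minus strand and holds 3 matches to CCAAT and 1 to TATAAA, and H2BC15 lies at chr6:27838319-27838568 on the plus strand and holds 3 and 0.
H2AC17: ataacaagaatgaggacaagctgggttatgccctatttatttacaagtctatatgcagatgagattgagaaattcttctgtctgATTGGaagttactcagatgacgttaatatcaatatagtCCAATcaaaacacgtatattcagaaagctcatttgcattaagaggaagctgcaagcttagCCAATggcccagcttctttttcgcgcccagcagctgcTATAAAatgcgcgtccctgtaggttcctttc
H2BC15: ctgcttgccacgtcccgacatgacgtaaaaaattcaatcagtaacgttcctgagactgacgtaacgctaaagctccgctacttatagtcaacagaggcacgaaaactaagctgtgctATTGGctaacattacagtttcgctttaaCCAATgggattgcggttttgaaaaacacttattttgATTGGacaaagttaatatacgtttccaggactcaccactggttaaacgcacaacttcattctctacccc

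Among the 48 histone genes with a promoter in the table, 89.6% held CCAAT and 66.7% TATAAA, against 34.6% and 8.8% of all genes. Of the 27 that were higher, 81.5% held CCAAT and 66.7% TATAAA.

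**Figure D3:**
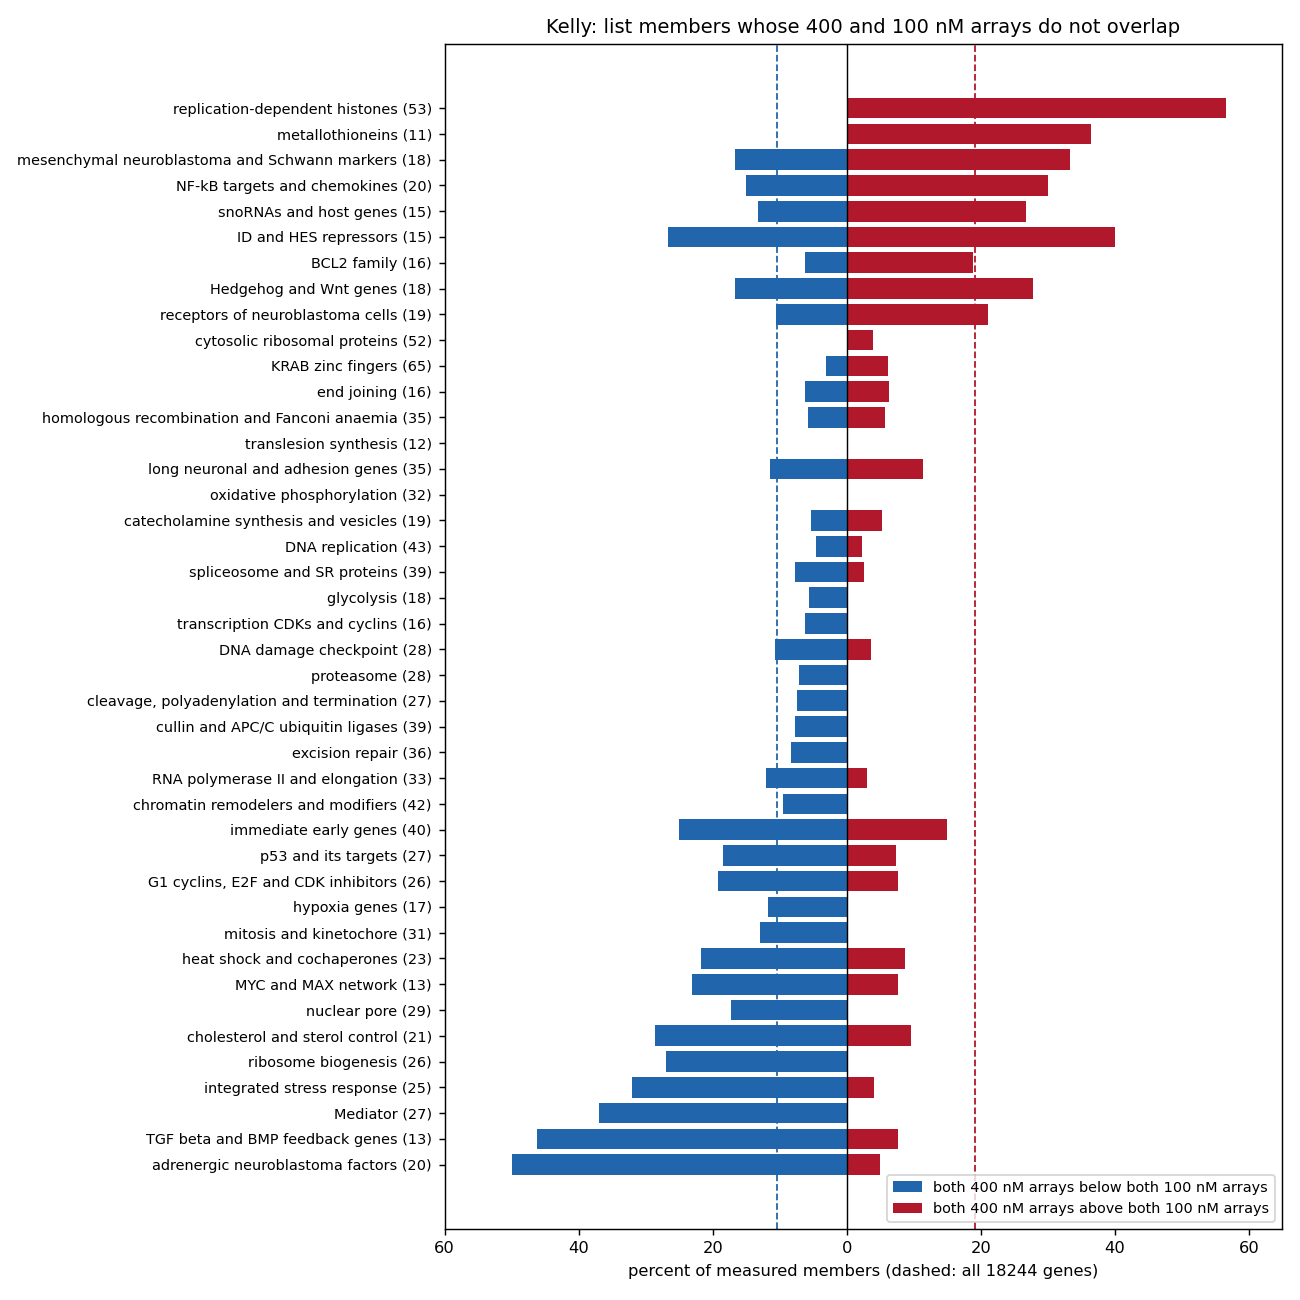
Percent of the measured members of each gene list (number in brackets; lists of at least 10 genes) with both 400 nM arrays below both 100 nM arrays, to the left, or above, to the right. Dashed lines mark all genes, 10.4% lower and 19.2% higher; histones extend to 56.6% higher and adrenergic factors to 50% lower.

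The list of small nucleolar RNAs and host genes held members in both directions. Small nucleolar RNAs guide modification of ribosomal RNA and are released from introns of host genes. The probe set of SNORA65 was at 5.73 and 6.29 (DMSO), 9.36 and 9.06 (100 nM) and 10.03 and 10.20 (400 nM), the widest range over the doses among the genes named here. The level of SNHG17, a host gene, was 6.50 and 6.31 (DMSO), 7.66 and 7.73 (100 nM) and 8.35 and 8.61 (400 nM). SNHG7, another host gene, was lower at 10.99 and 10.94 at 400 nM against 11.54 and 11.39 at 100 nM, with the opposite sign in its other probe set. The list held 4 higher (26.7%) and 2 lower (13.3%) of 15, beside 19.2% and 10.4% of all genes. Its median change was 0.01 against 0.06 for all genes. Counts were 5 higher and 5 lower with median centring, beside 7.08% and 13.3% of all genes. After quantile normalization they were 5 and 3, beside 9.27% and 10.2%. Array probes named for a small nucleolar RNA can also read its host transcript.

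The remaining genes with the widest gaps upward have no common role. BLOC1S3, a subunit of a complex that forms lysosome-related organelles, was at 9.37 and 8.95 (DMSO), 8.22 and 8.32 (100 nM) and 9.15 and 9.49 (400 nM). FCGR2A, an antibody receptor gene of blood cells, was at 7.57 and 7.63 (DMSO), 6.76 and 6.81 (100 nM) and 7.63 and 7.69 (400 nM) and ARHGEF37, a guanine nucleotide exchange factor gene, at 7.29 and 7.44 (DMSO), 6.51 and 6.43 (100 nM) and 7.29 and 7.35 (400 nM). For these 3 genes both 100 nM arrays lay below both DMSO arrays, while the 400 nM arrays lay near them. GPT, which encodes an alanine aminotransferase, was at 6.36 and 6.27 (DMSO), 5.67 and 5.74 (100 nM) and 6.42 and 6.44 (400 nM), and ASB10, a SOCS box gene, at 6.74 and 6.53 (DMSO), 6.18 and 5.74 (100 nM) and 6.87 and 7.01 (400 nM). ACY3, an aminoacylase gene, was at 7.07 and 6.91 at 400 nM against 6.20 and 6.23 at 100 nM, and ARIH2OS, transcribed opposite to ARIH2, at 7.53 and 7.19 at 400 nM against 6.32 and 6.43 at 100 nM. GAGE10, of a cancer-testis family with near-identical copies, was at 8.19 and 9.38 (DMSO), 8.26 and 7.93 (100 nM) and 9.22 and 9.24 (400 nM), and its DMSO arrays spanned a wider range than the gap between the doses. The changes of these 8 genes ran from 0.72 ± 0.19 to 1.14 ± 0.42.

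The arrays of the kinases themselves and of most repair genes overlapped between the doses. CDK12 was at 7.39 and 8.45 at 400 nM against 8.76 and 7.41 at 100 nM and CDK13 at 5.96 and 7.54 at 400 nM against 8.22 and 6.77 at 100 nM, with changes of −0.16 ± 0.57 and −0.74 ± 0.81, while their cyclin CCNK was lower at 9.21 and 9.40 at 400 nM against 10.07 and 9.57 at 100 nM (−0.52 ± 0.28). BRCA1, a core gene of homologous recombination, was at 6.50 and 7.74 at 400 nM against 8.18 and 6.48 at 100 nM, and its partner BARD1 at 5.81 and 7.11 at 400 nM against 6.41 and 5.64 at 100 nM. PALB2, which brings BRCA2 to breaks, was at 5.93 and 7.29 at 400 nM against 7.23 and 6.11 at 100 nM, and the exonuclease gene EXO1 at 7.03 and 8.25 at 400 nM against 7.98 and 6.87 at 100 nM. In BRCA1, BARD1, PALB2 and EXO1 the lowest arrays were 400 nM replicate 1 and 100 nM replicate 2, and the other 2 arrays lay higher. The same held for the helicase gene BLM at 6.24 and 7.39 at 400 nM against 6.99 and 6.37 at 100 nM, the checkpoint kinase gene ATR at 4.82 and 5.99 at 400 nM against 5.67 and 4.63 at 100 nM, the termination factor gene PCF11 at 5.31 and 6.42 at 400 nM against 6.59 and 5.46 at 100 nM and the splicing gene CDC5L at 7.34 and 8.85 at 400 nM against 8.94 and 7.86 at 100 nM. ATM, another checkpoint kinase gene, was at 7.84 and 8.55 at 400 nM against 9.10 and 7.88 at 100 nM and also overlapped. All treated arrays of CDK12, BRCA1, BARD1, PALB2, EXO1, BLM, ATR and PCF11 lay below both DMSO arrays. This did not hold for CDK13, CCNK, CDC5L and ATM. BRCA1 was at 8.59 and 9.25 in DMSO, and differed from it by −1.59 ± 0.84 at 100 nM and −1.80 ± 0.84 at 400 nM. The homologous recombination and Fanconi anaemia list had medians of −0.90 at 100 nM and −0.94 at 400 nM against DMSO. For BRCA1 the 95% interval of the step from 100 to 400 nM was −0.21 ± 1.91. A further difference of more than a log2 unit in either direction lay inside it, and 0 of the 4 other BRCA1 probe sets shared the sign of the step.

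Counts for the repair lists are read against 10.4% lower and 19.2% higher of all genes. Of 35 homologous recombination and Fanconi anaemia genes 2 were lower and 2 higher, of 28 checkpoint genes 3 and 1, of 36 excision repair genes 3 and 0, of 16 end joining genes 1 and 1, of 43 replication genes 2 and 1, and of 8 mismatch repair and 12 translesion synthesis genes 0 and 0. The lower shares of checkpoint (10.7%) and excision repair genes (8.33%) lay near that of all genes. Median changes of the lists lay between −0.02 and 0.12. These medians joined array pairings that disagreed: for homologous recombination and Fanconi anaemia the median was −0.57 for the replicates numbered 1, 0.96 for those numbered 2, 0.17 for 400 nM replicate 1 against 100 nM replicate 2 and 0.05 for 400 nM replicate 2 against 100 nM replicate 1. Checkpoint genes gave −0.94, 0.94, 0.04 and −0.14, and nuclear pore genes −1.09, 1.42, 0.12 and −0.07 in the same order. The sign of these medians thus turned on which arrays were set against each other.

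**Figure D4:**
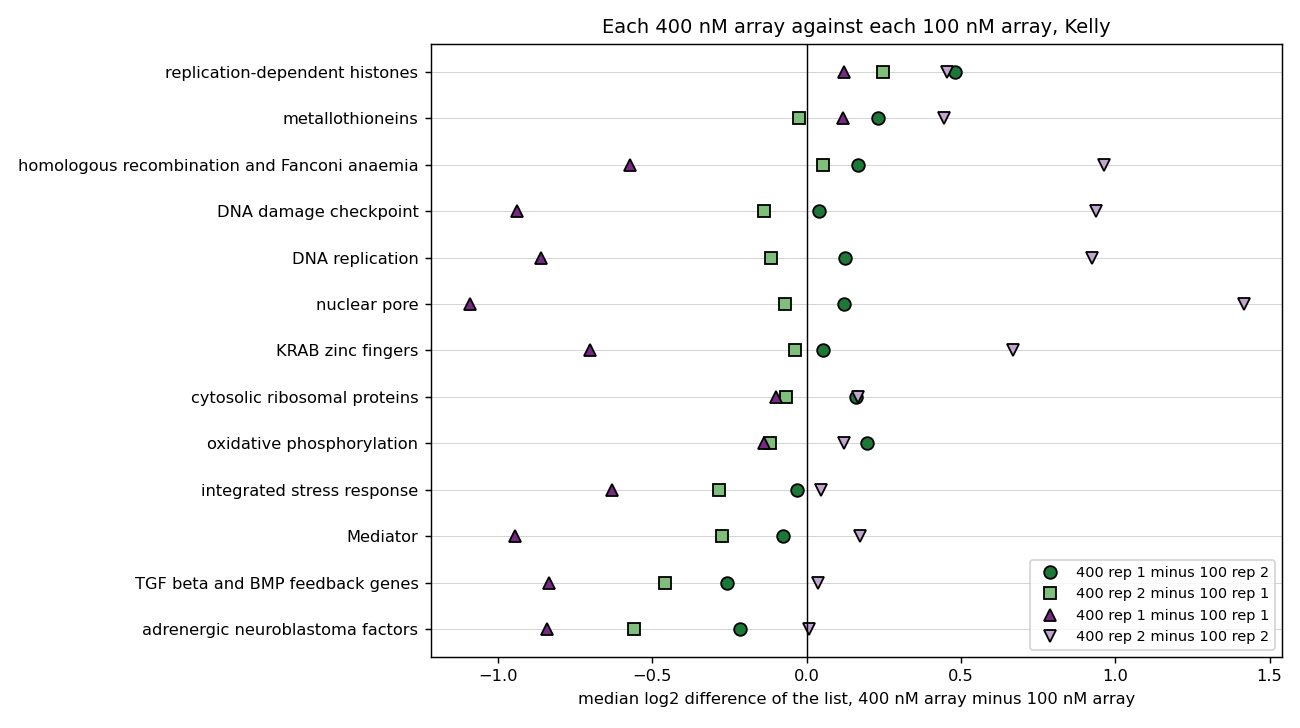
Median log2 difference of each gene list for each 400 nM array minus each 100 nM array in Kelly; circles and squares are the pairs of arrays most alike, triangles the pairs with the same replicate number. Histone medians are positive in all 4 pairings (0.12 to 0.48), and those of homologous recombination and Fanconi anaemia run from −0.57 to 0.96.

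Members differed in level and in gene span. Lower members had a median level of 7.88 and higher members one of 5.78, against 6.84 for all genes. By quartile of level, from dim to bright, the share of lower genes was 7.06%, 5.66%, 13.5% and 15.2%, and the share of higher genes 31%, 31.4%, 12.1% and 2.43%. By quartile of gene span, from short to long, the share of lower genes was 13%, 12.1%, 10.2% and 6.18%, and that of higher genes 26.6%, 19.9%, 14.7% and 15.6%. The shortest quartile thus held the largest share of members in both directions. Among rows above the median level the lower share was 19.9%, 15.2%, 11.6% and 6.75%, so the order of the lower shares by span was the same in bright genes. Median changes by span quartile stayed between 0.04 and 0.09. These shares concern the step between the doses and not the difference from DMSO. From short to long, the median difference from DMSO was −0.21, −0.30, −0.42 and −0.47 at 100 nM. At 400 nM it was −0.09, −0.23, −0.41 and −0.42, so longer genes lay further below DMSO at both doses. In the same order the lower share of the IMR-32 step was 49.3%, 57.5%, 57.8% and 50.3%.

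The same step in IMR-32, on arrays that Kelly does not share, gives a comparison for the members. In IMR-32 53.7% of genes were lower and 1.82% higher, with a median change of −0.42 and 100 nM arrays that differed from each other by a median of 0.47. The median level over genes was 7.21 and 7.53 (DMSO), 6.41 and 7.28 (100 nM) and 6.23 and 6.12 (400 nM). Replicate 2 at 100 nM thus lay in the DMSO range, and the IMR-32 changes average it with an unlike array. Of the 1892 Kelly lower genes 1294 (68.4%) were also lower in IMR-32, which is 13.2% of the IMR-32 lower genes, and 22 (1.16%) were higher there. Of the 3510 Kelly higher genes 120 (3.42%) were also higher in IMR-32, or 36.1% of the IMR-32 higher genes, and 1661 (47.3%) were lower, beside 53.7% of all genes. These opposite counts depended on the scaling: for Kelly higher genes lower in IMR-32 they were 30 (2.32%) with median centring and 93 (5.5%) after quantile normalization, and for Kelly lower genes higher in IMR-32 they were 318 (13.1%) and 242 (13%). With median centring, 39.9% of Kelly lower genes were lower in IMR-32 beside 17.2% of all genes, and 38.3% of Kelly higher genes were higher beside 29.6%. After quantile normalization the shares were 33.5% beside 17.3% and 34.1% beside 28%. In each scaling the share among Kelly members lay above that of all genes in both directions, by an amount that differed between scalings.

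By list, most histone, Mediator and adrenergic members were members in both lines. Of the 30 histone genes higher in Kelly 20 were higher in IMR-32, and 26 of 53 were higher there. H2AC17 differed by 1.08 ± 0.34 in Kelly and by 1.04 ± 0.34 in IMR-32, and IER3 by 0.56 ± 0.60 and 1.86 ± 0.60. The IMR-32 100 nM arrays were at 6.77 and 5.78 for H2AC17 (DMSO 5.59 and 6.01). For IER3 they were at 9.21 and 6.80 (DMSO 6.77 and 6.80). Replicate 2 lay near DMSO in both genes, so the sizes of these IMR-32 changes rest in part on that array. Of the 10 Mediator genes lower in Kelly 8 were lower in IMR-32, a share near that of the whole list there, 21 of 27 (77.8%). MED26 differed by −1.50 ± 0.23 in Kelly and −2.58 ± 0.23 in IMR-32. Of the 10 adrenergic factors lower in Kelly 9 were lower in IMR-32, where 14 of 20 were, and of the 6 TGF beta and BMP feedback genes 6, where 11 of 13 were. With median centring 20 of 20 histone genes higher in Kelly were higher in IMR-32, where 48 of 53 histone genes were. After quantile normalization this was 22 of 22, where 45 of 53 were. Mediator genes lower in Kelly were lower in IMR-32 in 8 of 12 and 6 of 8 cases, where 14 and 12 of 27 were. For adrenergic factors this was 7 of 12 and 7 of 9, where 9 and 10 of 20 were. For the feedback genes it was 4 of 8 and 3 of 5, where 5 and 5 of 13 were. Among feedback genes 1 was higher in both lines in each of these scalings. The IMR-32 arrays of DDIT4, SERTAD1 and ATF3 overlapped between the doses. These genes differed by −1.13 ± 0.40, −1.14 ± 0.59 and −0.82 ± 0.37 in Kelly and by 0.15 ± 0.40, 0.25 ± 0.59 and 0.43 ± 0.37 in IMR-32, and limma passed the difference for none of them. At 100 nM in IMR-32, DDIT4 was at 10.95 and 9.54 (DMSO 9.36 and 9.41) and ATF3 at 8.31 and 7.09 (DMSO 6.93 and 6.98). Replicate 2 at 100 nM thus lay near DMSO. Both 400 nM arrays of each of these genes, SERTAD1 included, lay between the 100 nM arrays, below replicate 1 and above replicate 2.

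**Figure D5:**
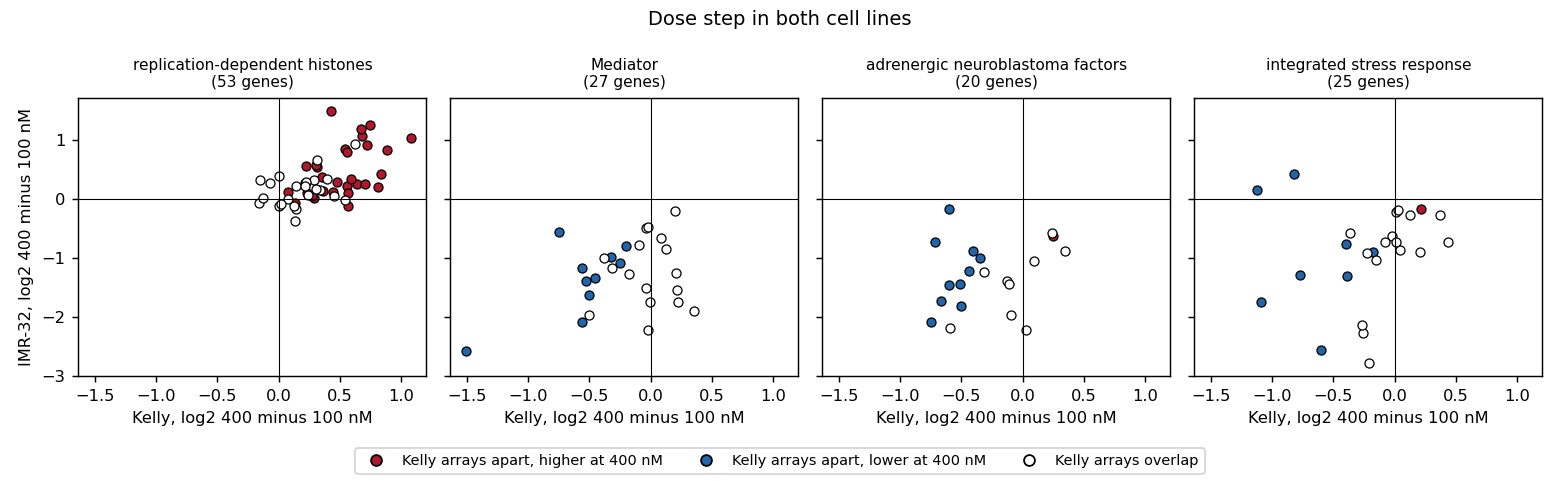
Log2 change between 400 and 100 nM in Kelly (horizontal) and IMR-32 (vertical) for each measured gene of 4 lists; filled points are genes whose Kelly arrays lie apart. Histone genes lie mostly to the upper right. Of the 10 Mediator genes lower in Kelly 8 are also lower in IMR-32, where 21 of 27 are. Of the 10 adrenergic factors lower in Kelly 9 are, where 14 of 20 are.

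The difference between the lines was tested in the same fit. The change in Kelly minus that in IMR-32 had a median of 0.55, and 0 of 18244 genes passed limma (0.0%; smallest adjusted p = 0.524), and at an unadjusted p under 0.05 there were 23 lower and 1343 higher genes. Without IMR-32 100 nM replicate 1, 46 genes had a lower and 3403 a higher value in Kelly by limma at an FDR of 0.05, whereas 0 passed when each of the 7 other treated arrays was left out in turn. The genes with the smallest p were SAA4, a serum amyloid gene (1.51 ± 0.28), OR6K3, an olfactory receptor gene (1.45 ± 0.27), and SLC5A10, a sugar transporter gene (1.30 ± 0.25), which were higher at 400 nM in Kelly and lower in IMR-32, although OR6K3 overlapped in Kelly after both other scalings. With the opposite sign were CLEC3A, a lectin gene (−1.29 ± 0.40), the sulfotransferase gene SULT1E1 (−0.84 ± 0.29) and the globin gene HBG1 (−1.62 ± 0.53). Apart from SLC5A10 these genes were dim, with Kelly 400 nM arrays between 2.28 and 5.39, below the median of all rows.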

How the data were processed

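RNA of 12 cultures was measured on PrimeView arrays, with RNA spike-ins added per cell number. The deposited values are probe set intensities on a linear scale, which the authors summarised (MAS5 and affy in R 3.1.3, per the submitters' processing notes) and normalized by loess to the spike-ins, so that shifts of all genes are kept and an error of spike-in addition would shift an array as a whole. Each deposited intensity was turned into log2 with no pseudocount. Of 49495 rows, 45284 carried 1 gene symbol and 1333 several, and each of 18244 genes was read from its brightest probe set on average. limma 3.58.1 (R 4.3.3) fitted 6 group means over all 12 arrays (6 residual and 2.85 prior degrees of freedom), with Benjamini-Hochberg adjustment and an FDR of 0.05. The script was tested on simulated data with less spread between arrays than the prior SD that limma fitted here (0.30). That test checks the calculation and does not show the power in these arrays. Python 3.11.15, numpy 2.4.6, pandas 2.3.3 and matplotlib 3.10.9 gave counts and figures. Promoters were matched for 14488 genes.

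The gene lists and members were chosen with earlier results of these data known, and some lists follow themes that the study drew from these arrays, so their counts are no independent evidence. Genes were named for the 10 widest gaps each way as deposited, among genes apart the same way in all 3 scalings. For these the higher dose mean also had to lie above the median of all rows. Others were in a panel named whatever their values, or had the widest gaps of a list (up to 4). The last were those with the smallest p for the difference between the lines (3 each way). Y-linked genes and XIST were left out. The alternatives were other scalings, probe set rules, filters, fits and arrays left out. The number of arrays limits the precision. SEs and p-values rest on the spread between duplicates pooled over all 6 groups of both lines, not on the Kelly duplicates alone. For SERTAD1 the SE was 0.59 in both lines, and its IMR-32 arrays at 100 nM were at 9.26 and 7.08.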

Additional observations from a re-analysis of the deposited data

Results flagged for a closer look

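The dose step ran in opposite directions in the lines, with arrays that did not overlap in either, for 22 genes lower at 400 nM in Kelly and higher in IMR-32, and for 1661 genes higher in Kelly and lower in IMR-32. With median centring these counts were 318 and 30, and after quantile normalization 242 and 93. As deposited, the second count stood beside a median change of 0.06 in Kelly and −0.42 in IMR-32. By limma the difference between the lines passed for 0 genes (smallest adjusted p = 0.524).

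Among the genes named, the change in Kelly minus that in IMR-32 on the log2 scale was 1.43 for BLOC1S3, 1.21 for FCGR2A, 1.13 for ARHGEF37 and 1.14 for ACY3. For BLOC1S3 and ACY3 1 of 2 other probe sets had the opposite sign of the Kelly step. The values were 2.08 for KIT and 2.04 for PDGFRA, both kinase receptors of growth factors. In Kelly these 2 genes were dim, with KIT at 4.15 and 4.55 at 400 nM against 3.56 and 3.61 at 100 nM. In IMR-32 KIT was at 6.37 and 6.59 at 400 nM against 6.77 and 8.81 at 100 nM, so that 1 array of the lower dose set much of the value. The repressor genes ID1 and HEY2 differed by −1.04 and 1.28, and for KIT and HEY2 1 of 2 other probe sets had the same sign of the Kelly step. The HEY2 arrays of the doses overlapped in Kelly with median centring and quantile normalization. For SAA4, OR6K3 and SLC5A10 the values were 1.51, 1.45 and 1.30, and for CLEC3A and SULT1E1 −1.29 and −0.84.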

How the results depend on the processing

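In Kelly 0 genes passed limma in the main fit and in all 20 other fits, while counts at an unadjusted p under 0.05 ran from 22 to 1869 lower and from 38 to 2245 higher. Replicate numbers do not pair these samples (correlation of replicate differences −0.78), and with a replicate block 0 passed and 94 lower and 209 higher genes had an unadjusted p under 0.05. With the crossed pairing, chosen after seeing the data, 0 passed and the counts were 203 and 419. Of the counts of genes whose arrays did not overlap, the lower count was 4413 with every probe set separately, 491 with a gap of at least 0.25, 101 with one of at least 0.5, and 2278 to 8312 with 1 array left out (8312 without 100 nM replicate 2, 5239 and 3254 without 400 nM replicate 2 and 1). The higher count was 1291 with median centring, 1692 after quantile normalization, 7401 with every probe set, 1028 among rows above the median, 892 and 111 with those gaps, and 4176 to 10980 with 1 array left out (10980 without 100 nM replicate 1, 7983 without 400 nM replicate 1). Fewer arrays overlap less often by construction. In IMR-32 median centring and quantile normalization gave 3135 and 3162 lower and 5392 and 5116 higher genes. The median change of all genes in Kelly ran from −0.25 (replicates numbered 1 alone) to 0.33 (replicates numbered 2 alone), with 0.26 without 100 nM replicate 1 and −0.17 without 100 nM replicate 2. The difference between the lines passed for 3449 genes without IMR-32 100 nM replicate 1 and for 0 in the other settings run, of which those without an IMR-32 400 nM array were chosen after seeing the data. Apart from the arrays left out and the scalings, the cause was not tested. Of 44 list medians 1, that of histones, kept its sign in every setting. With 1 array per dose no count of arrays that do not overlap was made. The median change of all genes turned to −0.02 with median centring, and the other 43 list medians changed sign in at least 1 setting.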
